A study of Mus musculus with 2 samples.

Results

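The mir-30 family was examined in whole mouse heart at embryonic day 12.5. Its 6 genes, Mir30a, Mir30b, Mir30c-1, Mir30c-2, Mir30d and Mir30e, were taken by their GENCODE M21 symbols from 1973 microRNA gene rows. The hearts came from embryos of strain B6NCrl with both sexes pooled, and the labels name no treatment and no altered gene. RNA of under 30 bases was sequenced from 2 biological replicates, 1 library each, which form a single group with no contrast between conditions. The spread between them may be partly technical, since the labels do not say how many embryos each pool held.

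MicroRNAs load into Argonaute proteins and guide them to messenger RNAs that pair with the seed, bases 2 to 8 of the mature strand. The members of the mir-30 family share a seed on their 5p arm and so are held to recognise overlapping sets of targets. The family is known as abundant in heart, where in rodents miR-30c represses connective tissue growth factor, an inducer of matrix production.

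The mature sequences show how close the members are, with the seed in capitals. Both arms were found in the RefSeq table of GRCm38.p6 for 4 of the 6 genes, Mir30a, Mir30e, Mir30c-1 and Mir30c-2.
miR-30e-5p: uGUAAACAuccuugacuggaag
miR-30a-5p: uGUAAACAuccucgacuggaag
miR-30c-5p: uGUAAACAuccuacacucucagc
miR-30e-3p: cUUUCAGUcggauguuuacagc
miR-30a-3p: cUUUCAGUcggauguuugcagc
miR-30c-1-3p: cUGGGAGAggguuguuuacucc
miR-30c-2-3p: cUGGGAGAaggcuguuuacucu

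The 5p arms of Mir30a, Mir30e, Mir30c-1 and Mir30c-2 carry 1 seed, and their first 12 bases are identical. Counted from 1 at the 5′ end, with miR-30a as the first base given, miR-30a-5p and miR-30e-5p differ by the single substitution C13U. Their 3p arms differ by G18A alone. The 3p arms fall into 2 seed groups, 1 of Mir30a and Mir30e and another of Mir30c-1 and Mir30c-2. Mir30c-1 and Mir30c-2 differ at 3 positions of the 3p arm, given from miR-30c-1-3p as G9A, U12C and C22U. Their 5p arms are the same 23 bases. Both hairpins are shown because this shared arm decides which reads can be counted to either gene, with capitals marking the 28 bases that lie in an 18-base stretch common to both.
Mir30c-1 hairpin: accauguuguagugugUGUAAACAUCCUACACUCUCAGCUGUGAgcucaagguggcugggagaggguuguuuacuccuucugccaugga
Mir30c-2 hairpin: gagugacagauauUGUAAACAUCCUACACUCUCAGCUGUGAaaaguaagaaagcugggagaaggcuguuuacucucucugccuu

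All 6 of the 18-base windows of miR-30c-5p matched the hairpin of the other Mir30c gene. No further match was found among the 1004 hairpins searched, which did not include Mir30b or Mir30d. Overlap with Mir30b and Mir30d was therefore not examined. For both arms of Mir30a and Mir30e and for both miR-30c 3p arms, 0 of 5 windows matched another hairpin in the RefSeq table, which is not complete. With 16-base windows, 2 of 7 of miR-30a-3p and of miR-30e-3p matched the hairpin of the other gene, and these hairpins have a longest common run of 18 bases. Reads that fit several places stand in a row of their own in the tables and in no gene's count. A read that holds only miR-30c-5p therefore could not be counted to Mir30c-1 or to Mir30c-2. The tables do not separate the arms, and the genome beyond these hairpins was not searched.

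The 6 genes lie in 3 pairs, given here on GRCm38 with GENCODE M21. Mir30e (ENSMUSG00000065409.1, chromosome 4, 120772606 to 120772697) and Mir30c-1 (ENSMUSG00000065490.1, chromosome 4, 120769534 to 120769622) lie on the minus strand, 2983 bases apart. Both are in introns of Nfyc, which encodes a subunit of the transcription factor NF-Y and is transcribed from the same strand. Mir30a (ENSMUSG00000065405.2, chromosome 1, 23272269 to 23272339) and Mir30c-2 (ENSMUSG00000065567.1, chromosome 1, 23291701 to 23291784) lie on the plus strand, 19361 bases apart. Mir30a overlapped no other annotated gene, and Mir30c-2 overlapped an exon of the long noncoding RNA Gm27028. Mir30d (ENSMUSG00000065437.1, chromosome 15, 68341208 to 68341289) and Mir30b (ENSMUSG00000065476.2, chromosome 15, 68337415 to 68337510) lie on the minus strand, 3697 bases apart. Mir30d overlapped exons of the noncoding genes Gm37296 and Gm20732, and Mir30b an exon of Gm26621.

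Replicate 1 held 4478599 sense counts and replicate 2 held 5279908, where a sense count is a read on the strand its gene is annotated on. Levels are given in CPM, the usual scaling of counts to this total, and are not divided by length, since a read covers a mature arm rather than the hairpin of 71 to 96 bases. Intervals are exact 95% intervals. Since the labels state no molecular identifiers, they hold the error of counting and no other. The limit that a count of 0 allowed, taken as 3 counts, was 0.670 CPM in the first library and 0.568 CPM in the second. The cardiomyocyte microRNAs Mir208a, Mir208b and Mir499 summed to 63958 and 61924 CPM in replicates 1 and 2, so these microRNAs were present. The muscle genes Mir1a-1, Mir1b, Mir133a-1, Mir133a-2 and Mir133b, named after their values were seen, were low. Their mean levels were 3.60, 2.33, 1.68, 0.981 and 4.69 CPM, in that order. Mir206, the neighbour of Mir133b and also named after its values were seen, stood higher at a mean of 26.8 CPM. Such counts leave out reads that fit several places. The neural Mir124a-1 had 0 and 1 counts, which does not measure neural content where further genes give the same mature microRNA, and Mir9-1 was not analysed here.

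The mir-30 genes together took 5.65% (95% interval 5.63 to 5.68) of the sense counts in replicate 1 and 6.34% (6.32 to 6.36) in replicate 2, or 59985 ± 4873 CPM (SD, n = 2). These were 253217 and 334906 counts. Mir30e, Mir30a and Mir30d held 99.5% ± 0.0295 (SD, n = 2) of the family's counts, while Mir30b, Mir30c-1 and Mir30c-2 together held 0.473% ± 0.0295 (SD, n = 2). Reads that hold only miR-30c-5p are in neither Mir30c count, so these shares do not measure that arm. In a whole organ, fewer cells of a type and less RNA per cell cannot be told apart.

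Mir30e was the highest member. It stood at 29966 and 34036 CPM in replicates 1 and 2, with a mean of 32001 ± 2878 CPM (SD, n = 2), and ranked 8 and 7 among all genes. It alone supplied 53.0% and 53.7% of the family's counts. Mir30c-1, its neighbour in Nfyc, had 284 and 353 counts, or 63.4 and 66.9 CPM (mean 65.1 ± 2.44 CPM, SD, n = 2). The 2 genes did not overlap in either library, and Mir30e exceeded Mir30c-1 by a ratio of 473 (95% interval 421 to 533) in replicate 1 and 509 (459 to 567) in replicate 2. The count of Mir30c-1 leaves out reads that hold only miR-30c-5p.

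Mir30a, whose mature strand is known in human cells to repress the autophagy gene BECN1, stood at 16733 and 18578 CPM in replicates 1 and 2 (mean 17655 ± 1304 CPM, SD, n = 2). It ranked 17 and 13 among all genes and gave 29.6% and 29.3% of the family's counts. Mir30c-2, the other gene of this locus, had 134 and 170 counts, or 29.9 and 32.2 CPM (mean 31.1 ± 1.61 CPM, SD, n = 2). It was the lowest member in both libraries, by counts that leave out reads holding only miR-30c-5p. The ratio of Mir30a to Mir30c-2 was 559 (95% interval 472 to 668) in replicate 1 and 577 (496 to 675) in replicate 2, the highest of the 3 loci.

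Mir30d stood at 9585 and 10503 CPM in replicates 1 and 2 (mean 10044 ± 649 CPM, SD, n = 2), ranked 21 and 19 and gave 17.0% and 16.6% of the family's counts. Mir30b had 727 and 1131 counts, or 162 and 214 CPM (mean 188 ± 36.7 CPM, SD, n = 2). In human melanoma cells miR-30b and miR-30d are known to repress the glycosyltransferase GALNT7. The ratio of Mir30d to Mir30b was 59.0 (95% interval 54.9 to 63.6) in replicate 1 and 49.0 (46.2 to 52.1) in replicate 2. This locus showed the smallest ratio of the 3 in both libraries.

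**Figure D1:**
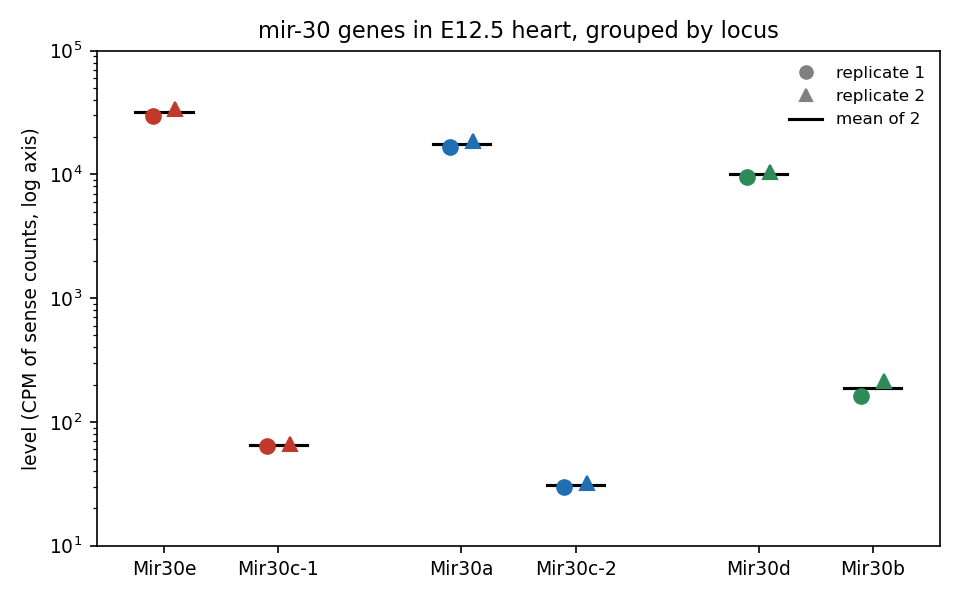
Level of each mir-30 gene (CPM of sense counts, log axis) in the 2 heart libraries, grouped by locus; circles are replicate 1, triangles replicate 2 and the line their mean. By the means, 1 gene of each locus stood at 10044 CPM or more (Mir30e 32001, Mir30a 17655, Mir30d 10044) and its neighbour at 188 CPM or less. The counts of Mir30c-1 and Mir30c-2 leave out reads that hold only miR-30c-5p.

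The order of the members was Mir30e, Mir30a, Mir30d, Mir30b, Mir30c-1 and Mir30c-2 in both libraries. At each of the 5 steps the values of the 2 libraries did not overlap, and the difference of the means exceeded the larger SD. The steps among the high members were small and even, with Mir30e over Mir30a at a ratio of 1.81 ± 0.0292 (SD, n = 2) and Mir30a over Mir30d at 1.76 ± 0.0162 (SD, n = 2). Mir30b exceeded Mir30c-1 by a ratio of 2.88 ± 0.455 (SD, n = 2), and Mir30c-1 exceeded Mir30c-2 by 2.10 ± 0.0304 (SD, n = 2). Reads that hold only miR-30c-5p are in neither Mir30c count. The places of Mir30c-1 and Mir30c-2 in this order thus rest on their other reads. With 2 libraries an exact permutation test cannot give a p below 0.5, so no p-value accompanies these ratios. Seen by locus, the Nfyc pair supplied 53.4% ± 0.461 (SD, n = 2) of the family's counts, the pair on chromosome 1 29.5% ± 0.219 (SD, n = 2) and the pair on chromosome 15 17.1% ± 0.243 (SD, n = 2). These shares moved far less between libraries than they differed from each other.

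**Figure D2:**
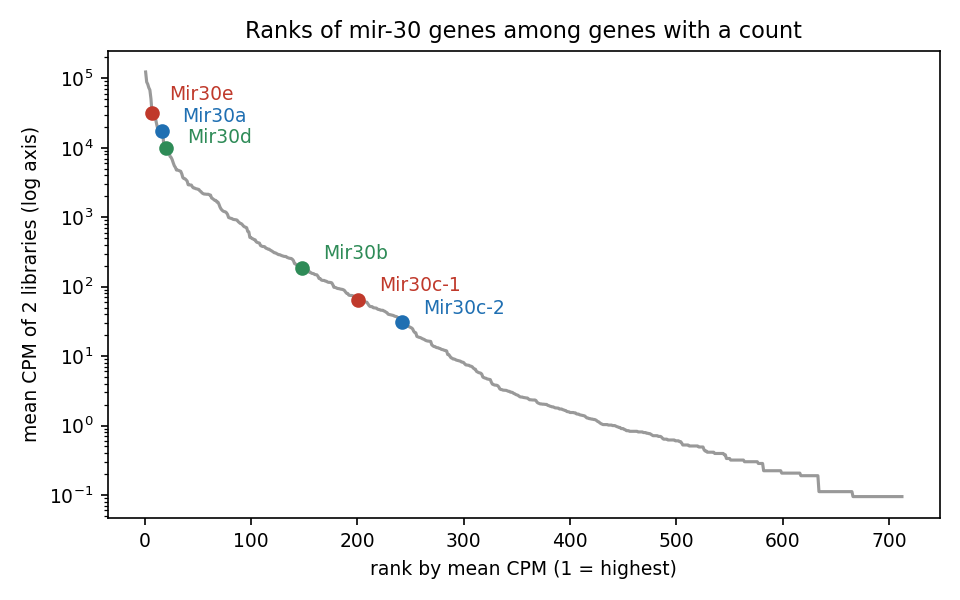
Mean CPM of 2 libraries (log axis) against rank for the 712 genes with a count, with the 6 mir-30 genes as coloured points, 1 colour per locus. Mir30e, Mir30a and Mir30d hold ranks 7, 16 and 20, and Mir30b, Mir30c-1 and Mir30c-2 ranks 148, 201 and 242.

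Over 2 libraries of 1 group, likeness of pattern cannot be measured, so genes of like level are given instead. Nearest to Mir30e on the log2 scale was Mir26b (30050 ± 1131 CPM, SD, n = 2), nearest to Mir30a was Mir99b (17829 ± 667 CPM, SD, n = 2), and nearest to Mir30d was Mir208a (9885 ± 160 CPM, SD, n = 2). Mir208a lies in the cardiac myosin gene Myh6. Mir30b stood nearest to Mir669l (188 ± 8.32 CPM, SD, n = 2), Mir30c-1 to Mir877 (64.7 ± 2.30 CPM, SD, n = 2) and Mir30c-2 to Mir326 (30.7 ± 3.68 CPM, SD, n = 2). Each of these 6 differences was smaller than the larger SD of its pair, which the choice of the nearest gene makes likely.

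The 5p seed was searched in the mature sequences of 1058 genes of the RefSeq table, and 1 gene outside the family carried it.
miR-384-5p: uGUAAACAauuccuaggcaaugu
Mir384 (ENSMUSG00000065499.1, chromosome X, 105344282 to 105344369, minus strand) had 7 counts (1.56 CPM, 95% interval 0.628 to 3.22) in replicate 1 and 18 counts (3.41 CPM, 2.02 to 5.39) in replicate 2. It lay below every member in both libraries. In replicate 1 its interval reached below 0.670 CPM, the limit taken as 3 counts, but did not reach 0. The seed of the miR-30c 3p arms also occurs in Mir6958, and the seed of the miR-30a and miR-30e 3p arms in no further gene of that table.

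Opposite-strand reads were nearly absent at the family. GENCODE M21 places a further gene, Mir30f, on the plus strand at the coordinates of Mir30e, and it has no row in the tables. Reads on that strand at Mir30e numbered 0 in replicate 1 and 1 in replicate 2, beside 134204 and 179707 sense counts. At the 5 other members there were 0 in both libraries.

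All 6 members were higher in replicate 2 than in replicate 1, by differences that were small. Among the 444 genes with at least 10 sense counts in total, 49.8% were higher in replicate 2. The log2 ratio of replicate 2 to replicate 1 had a median of 0.14 over the members and ran from 0.08 to 0.40, while the median over the 444 genes was 0.00 and their median size regardless of sign 0.20. For each of 712 genes the 2 counts were set against their sum in an exact binomial test with Benjamini-Hochberg adjustment, which compares 2 libraries and takes account of counting error alone. At an adjusted p of 0.05 and at least 2-fold, 0 of 6 members were called, against 0.421% of all genes. At any ratio, 4 of 6 were called higher in replicate 2, against 8.01% of all genes. An unadjusted p under 0.05 in this test was found for 4 of 6 members, against 164 of 712 genes in either direction. Of 78 genes at 1000 CPM or more, 65 were called in either direction without a minimum ratio, Mir30e, Mir30a and Mir30d among them, and 39 of the 78 were higher in replicate 2.

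Mir30b differed most between the libraries. Its level was 214 CPM in replicate 2 against 162 CPM in replicate 1, a ratio of 1.32 (95% counting interval 1.20 to 1.45, adjusted p = 5.4e-08, exact binomial test). The ratio was 1.14 (1.13 to 1.14) for Mir30e, 1.11 (1.10 to 1.12) for Mir30a and 1.10 (1.08 to 1.11) for Mir30d, all below the interval of Mir30b. For Mir30c-1 it was 1.05 (0.899 to 1.24, adjusted p = 0.859) and for Mir30c-2 1.08 (0.853 to 1.36, adjusted p = 0.896), so neither was called. These intervals hold counting error alone, and whether the members differ in how they vary between replicates was not tested.

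Of the markers of blood and liver, Mir451a and Mir122 differed between the libraries by over 2-fold. The red blood cell microRNAs Mir451a and Mir144 had a summed level of 1811 CPM in replicate 2, against 926 CPM in replicate 1. Mir451a carried this difference, at 1671 CPM in replicate 2 against 770 CPM in replicate 1, while Mir144 stood at 140 CPM in replicate 2 against 156 CPM in replicate 1. These 2 red blood cell microRNAs thus did not move together. Mir486, named after its values were seen and not among the chosen markers, had a log2 ratio of −0.37. Whether Mir486 measures red blood cells in whole heart was not tested. The liver microRNA Mir122 stood at 32.4 CPM in replicate 2 and 181 CPM in replicate 1. The summed cardiomyocyte markers were 61924 CPM in replicate 2 and 63958 CPM in replicate 1, the smooth muscle markers Mir143 and Mir145a summed to 90499 CPM in replicate 2 against 88791 CPM in replicate 1, and the endothelial Mir126a stood at 68770 CPM in replicate 2 against 67024 CPM in replicate 1. Their part in the differences of the mir-30 genes was not tested.

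**Figure D3:**
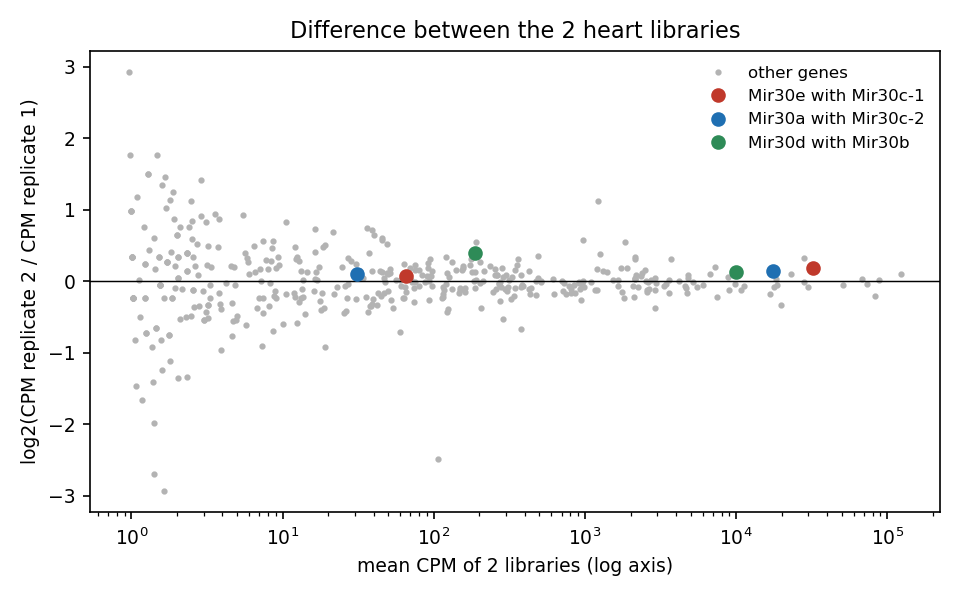
Log2 ratio of CPM in replicate 2 to CPM in replicate 1 against mean CPM (log axis) for the 444 genes with at least 10 sense counts; grey points are other genes and coloured points the mir-30 genes, 1 colour per locus. All 6 lie above 0, between 0.08 and 0.40, with Mir30b highest.

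The imbalance within the mir-30 loci was set beside that of other neighbouring microRNA genes. Within 50 kb on 1 strand and with at least 10 sense counts in each gene, 114 other adjacent pairs had a median absolute log2 ratio of 2.82 (7.05-fold) over the summed libraries, with quartiles of 1.60 and 4.67. Mir30e with Mir30c-1 stood at 8.94 and Mir30a with Mir30c-2 at 9.15, and 5 other pairs exceeded each of them. Mir30d with Mir30b stood at 5.73, exceeded by 21 other pairs. Limited to 10 kb, which leaves out the pair on chromosome 1, the median over 107 other pairs was 2.82 too. These pairs share libraries and often clusters, so their spread is a description and no test was made.

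Both extreme mir-30 pairs hold a gene whose mature arm stands whole in another hairpin, Mir30c-1 or Mir30c-2. Among other pairs with sequences for both genes, 20 held exactly 1 such gene, with a median absolute log2 ratio of 3.87 (14.6-fold). It was the lower of the pair in 20 of 20, and how far the counting of reads sets this direction was not tested. The split was made after the values were seen, so it is a description and no test. In 6 pairs both genes were of this kind, with a median of 3.79 (13.8-fold). In the 84 pairs with no such gene the median was 2.57 (5.96-fold) and the highest value 11.5. Reads that hold only a shared arm are in no gene's count, so the count of such a gene holds only its other reads. The part of the shared arm in the ratios of the mir-30 loci was not tested. Mir30d and Mir30b were not part of this comparison by sequence.

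**Figure D4:**
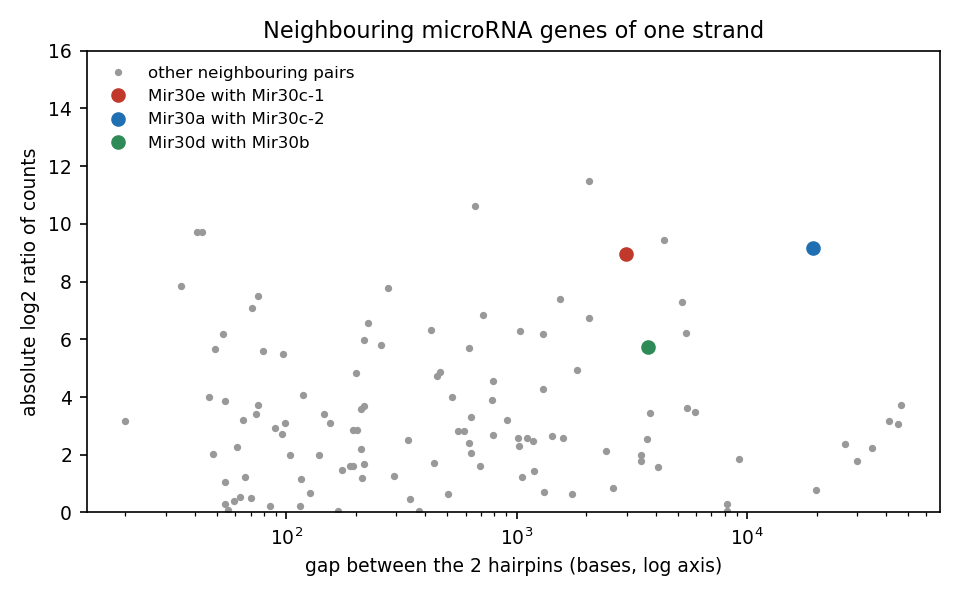
Absolute log2 ratio of summed sense counts against the gap between hairpins (bases, log axis) for adjacent microRNA genes of 1 strand within 50 kb; grey points are 114 other pairs and coloured points the 3 mir-30 pairs. Mir30e with Mir30c-1 (8.94) and Mir30a with Mir30c-2 (9.15) lie near the top, and Mir30d with Mir30b lies at 5.73.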

How the data were processed

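The authors deposited raw read counts per microRNA gene, 1 table per library without pooling, made on assembly mm10 with genome annotation M4 per the descriptions deposited with the tables. Which aligner and counting tool they used is not given in the sources used here. The columns have no names. Once the 4 rows that name no gene are included, all 3 columns of a library have 1 total, and the column that holds nearly all counts made without regard to strand was taken as sense.

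Those rows were kept out of library totals. In replicates 1 and 2 they held 27.1% and 25.3% of reads as fitting several places, 18.1% and 19.1% as unmapped and 6.29% and 5.88% as lying in no gene. CPM used the sum of sense counts, 4478599 and 5279908.

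Names and positions came from GENCODE M21, matched by identifier without version for 1894 of 1973 rows. M21 was not the annotation used for counting, and hairpin ends may differ between releases. Sequences came from the RefSeq table of GRCm38.p6. Shared stretches were exact matches of 18-base windows on either strand.

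Libraries were compared by an exact binomial test over 712 genes, two-sided, with Benjamini-Hochberg adjustment. It was checked on simulated counts that held counting error alone. The check covered calls of at least 2-fold and not those at any ratio. Scaling alternatives used edgeR 4.0.16 and DESeq2 1.42.0 in R 4.3.3. Other steps used Python 3.11.15, numpy 2.4.6, pandas 2.3.3, scipy 1.17.1 and matplotlib 3.10.9.

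Members, markers and tests were chosen with earlier results of these data known. Named genes were all members, other genes of the same 5p seed, the gene of nearest level to each member, overlapping genes and tissue markers. The split of neighbouring pairs by shared arms was added after their values were seen.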

Additional observations from a re-analysis of the deposited data

Results flagged for a closer look

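Reads that fit several places made up 26.2% ± 1.31 (SD, n = 2) of all reads, which is a signal outside the counts used for the mir-30 genes. They numbered 2503492 in replicate 1 and 2677232 in replicate 2, or 9.89 and 7.99 for each count of the family. The tables do not say which genes they came from, so how many carry miR-30c-5p was not tested.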

How the results depend on the processing

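No paired analysis was possible because all samples form 1 group. Of 79 recomputed values, 68 stayed within the spread between replicates or near the main count, 11 moved and 0 reversed. With 2 libraries, a level, share or ratio without 1 replicate is the value of the other library. It lies within the SD by arithmetic, so these values among the 68 do not measure robustness. With all reads as the total, the family's share was 2.95% and each of the 6 member levels fell with it, while all 6 members stayed at 10 CPM or more in both libraries. Without a minimum ratio, the exact binomial test called 119 genes in place of 3, and 4 members in place of 0. Without a filter and with a pseudocount of 1 count, the median absolute log2 ratio of neighbouring pairs within 10 kb was 1.21, against 2.85 with the filter and the mir-30 pairs included. All 6 members stayed higher in replicate 2 with TMM, with DESeq2 size factors, with all reads and without regard to strand. Without replicate 1 or replicate 2, the family's share ranged from 5.65% to 6.34%, and the ratios of Mir30e to Mir30c-1 from 473 to 509, of Mir30a to Mir30c-2 from 559 to 577 and of Mir30d to Mir30b from 49.0 to 59.0. Windows of 16 or 20 bases again gave 2 genes with a wholly shared 5p arm, and those of 16 bases also partial matches between miR-30a-3p and miR-30e-3p. Depth limits Mir30c-1, Mir30c-2 and Mir384, whose counting intervals are widest relative to their levels. For Mir30c-1 and Mir30c-2, reads that hold only miR-30c-5p are also left out at any depth.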
